A study of Mus musculus with 6 samples.

Results

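The chemokine receptor and marrow retention genes are 10 genes chosen by symbol from the 46329 in the deposited tables. They include the retention receptor gene Cxcr4 and its ligand gene Cxcl12, the release receptor gene Cxcr2, and the receptor genes Cxcr1, Ccr1, Ccrl2 and Cxcr3. The others are the sphingosine 1-phosphate receptor genes S1pr4 and S1pr1 and the G protein regulator gene Rgs2. Each symbol had 1 row in every file. RNA came from flow-sorted bone marrow neutrophils of male wild-type (WT) mice, in 3 libraries from mice put through chronic unpredictable mild stress (CUMS, changing mild stressors for 4 weeks) and 3 libraries from Control mice. All 6 libraries share sex, genotype, tissue and sorted cell type. The sources used here do not give mouse age or strain, the sorting gate, or whether a library is 1 animal or a pool, so p-values measure only the spread between these libraries, part of which may be technical.

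Neutrophils are made in the marrow and are kept there by CXCR4, a G protein-coupled receptor for CXCL12, which stromal and endothelial cells of the marrow secrete. CXCR2, the receptor for CXCL1 and CXCL2, acts against it and drives cells towards the blood. In mice, loss of CXCR4 from myeloid cells empties the marrow store of neutrophils, while loss of CXCR2 keeps them in. Neutrophils that age in the circulation gain CXCR4 and lose CXCR2, and can home back to the marrow.

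After CUMS, Cxcr4 was higher, Ccrl2, which encodes an atypical receptor, was lower, and Cxcr2 did not pass the test. Cxcr4 rose 1.19-fold and Ccrl2 fell to 0.744 of its Control level, both past an adjusted p of 0.05 in edgeR's quasi-likelihood test. For the other 8 genes the test was not passed, and 3 of those 8 (S1pr1, Cxcr3 and Cxcl12) nevertheless had all CUMS libraries above all Control libraries. The 2 calls among 10 genes stand beside a background of 4.5% of the 15778 genes tested. The groups did not overlap for 5 of the 10 genes, beside 22.9% of all genes: 4 had CUMS above, beside 11.5%, and 1 had it below, beside 11.5%. The same 5 genes had an unadjusted p under 0.05, beside 16.9% of all genes. All 10 genes lay above the expression filter's level of 0.106 CPM (estimated counts scaled to library size) in every library, so none entered the test through its higher group alone. No other annotated gene overlaps any of the 10 (0 of 10, GENCODE M21).

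**Figure D1:**
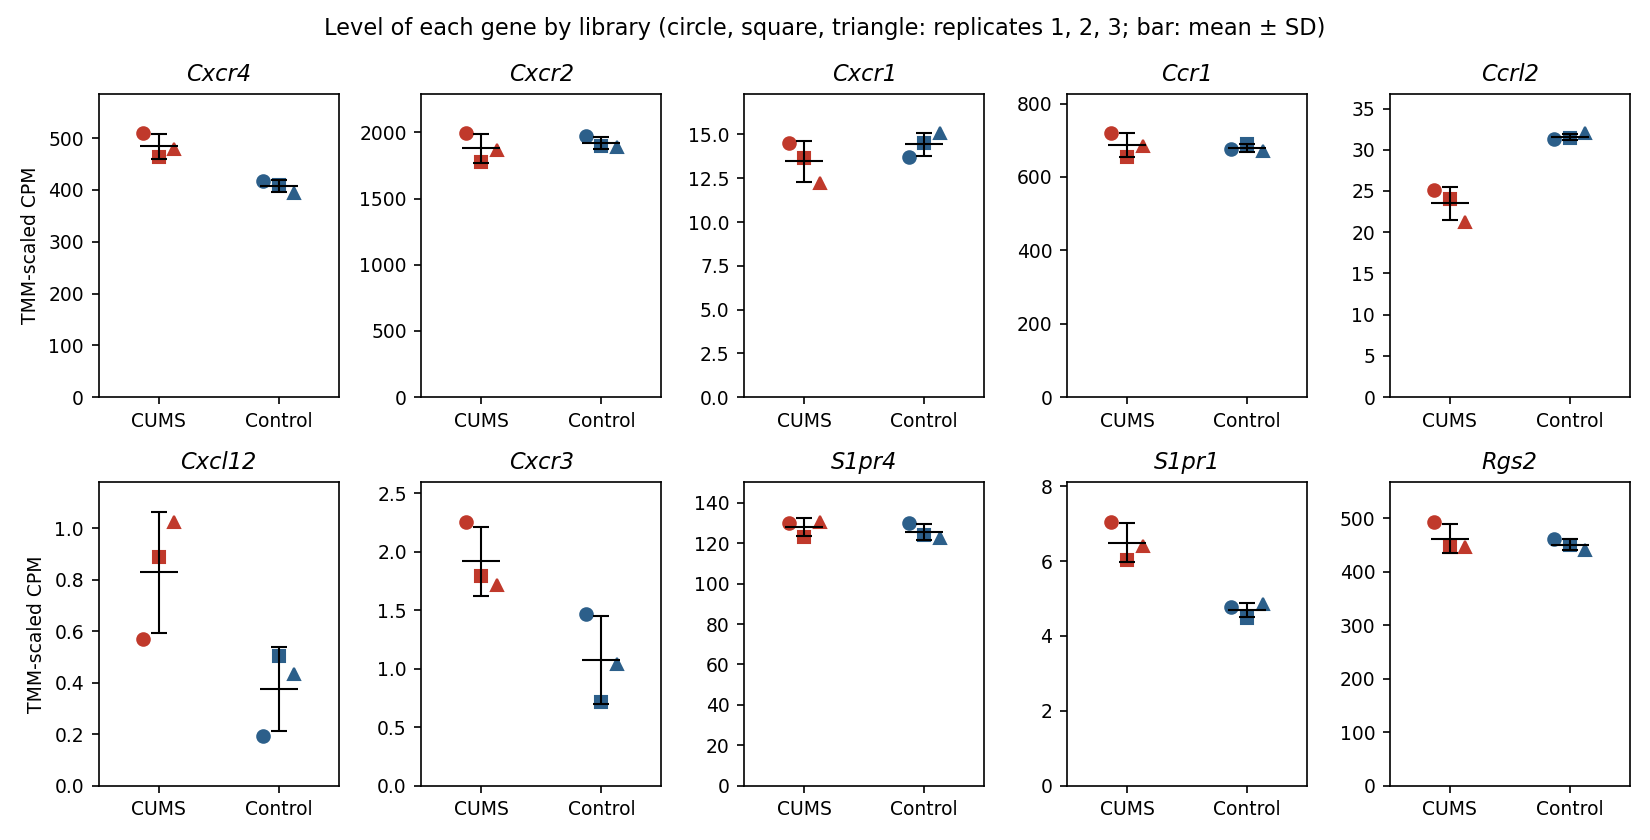
TMM-scaled CPM (y axis, from 0) of the 10 genes in each CUMS and Control library, with the mean ± SD as a bar. Cxcr4, Cxcl12, Cxcr3 and S1pr1 have all CUMS libraries above all Control libraries, Ccrl2 has them below, and the other 5 genes overlap.

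The libraries held 78845457 to 109757558 estimated counts, equal to about 19711364 to 27439390 read pairs. As a check of the sorted cell type, S100a9 lay between 29065 and 39454 CPM in CUMS and between 33828 and 43455 CPM in Control, and the summed level of 14 neutrophil markers was 113567 to 140149 CPM in CUMS and 132621 to 144423 CPM in Control. T and NK cell markers summed to 4.69 to 6.31 CPM in CUMS and 4.85 to 6.86 CPM in Control, and B cell markers to 39.9 to 46.3 CPM in CUMS and 26.9 to 36.3 CPM in Control. Erythroid markers summed to 1653 to 1992 CPM in CUMS and 880 to 1240 CPM in Control. Of these 12 genes, 7 were called higher, beside 2.36% over all genes. Of 8 eosinophil markers, all 8 had positive log2 fold changes (median 1.2) and 2 were called higher, beside 2.36% over all genes. Prg2 measured 4.06 to 5.47 CPM in CUMS and 0.755 to 0.969 CPM in Control (adjusted p = 6.9e-05). Epx measured 1.33 to 1.62 CPM in CUMS and at most 0.217 CPM in Control (adjusted p = 0.016). Epx was at 0 in Control replicate 2 and so passed the expression filter through its higher group. The eosinophil sums overlapped, at 51.5 to 59.9 CPM in CUMS and 44.8 to 51.8 CPM in Control. In bulk RNA of this kind, fewer cells of a type and less RNA per cell cannot be told apart.

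Upstream sequence is shown for Cxcr4 and Ccrl2, whose transcripts moved in opposite directions, and for Cxcr2, against which Cxcr4 is set. Each run is the 250 bases before the RefSeq transcript start (GRCm38.p6), read 5′ to 3′ on the gene's strand. Capitals mark matches, on either strand, to 5 motifs: the NRF1 palindrome, TATAAA (the promoter box named for its letters), ACGTG (core of the hypoxia response element), AGAACA (a hexamer of the glucocorticoid response element) and GGACTTTCC (an NF-kB sequence). The windows are chr1:128592300-128592549 on the minus strand for Cxcr4, chr1:74153744-74153993 on the plus strand for Cxcr2 and chr9:111057519-111057768 on the minus strand for Ccrl2.
Cxcr4: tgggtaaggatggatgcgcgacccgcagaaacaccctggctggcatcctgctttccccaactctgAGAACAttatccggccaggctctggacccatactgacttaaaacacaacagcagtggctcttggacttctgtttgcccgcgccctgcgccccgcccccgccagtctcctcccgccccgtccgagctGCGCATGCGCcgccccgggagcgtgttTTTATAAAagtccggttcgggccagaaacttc
Cxcr2: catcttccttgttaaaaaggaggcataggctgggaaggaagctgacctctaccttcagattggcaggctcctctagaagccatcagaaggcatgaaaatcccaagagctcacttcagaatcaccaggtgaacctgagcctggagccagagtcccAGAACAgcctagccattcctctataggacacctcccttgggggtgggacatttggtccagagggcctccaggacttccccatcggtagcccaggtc
Ccrl2: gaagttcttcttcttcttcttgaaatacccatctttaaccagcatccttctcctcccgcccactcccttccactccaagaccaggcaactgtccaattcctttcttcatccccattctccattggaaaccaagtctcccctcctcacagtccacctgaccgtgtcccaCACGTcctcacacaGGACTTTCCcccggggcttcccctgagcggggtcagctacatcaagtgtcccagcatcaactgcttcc

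The Cxcr4 window held the NRF1 palindrome, the run of 10 capitals that begins 59 bases before the start, and overlapping TATAAA matches on both strands at 30 and 32 bases, and its GC content was 61.2% with 19 CG dinucleotides. The Cxcr2 window held 1 of the motifs, the AGAACA hexamer, and 1 CG dinucleotide at 54.4% GC. The Ccrl2 window held GGACTTTCC starting 68 bases before the start and ACGTG, on the opposite strand, at 82 bases, with 5 CG dinucleotides at 54.0% GC. Over 32851 windows of the same length, 0.782% held the NRF1 palindrome, 0.283% held GGACTTTCC, 12.4% held TATAAA, 16.6% held ACGTG and 16.1% held AGAACA, and the median was 52.4% GC with 6 CG dinucleotides. The AGAACA hexamer was in the windows of Cxcr4, Cxcr2 and Cxcr1, 3 of the 9 genes with a window. The 5 motifs were chosen with the sequences known, so how rare a matched motif is over all windows carries no weight. These are matches of letters, and binding was not measured.

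Cxcr4 (ENSMUSG00000045382.6; chromosome 1, 128588199 to 128592293, minus strand, GRCm38, protein-coding) measured 510, 463 and 479 CPM in CUMS replicates 1 to 3 and 416, 410 and 394 CPM in Control replicates 1 to 3. The lowest CUMS library thus lay above the highest Control library. The means were 484 ± 23.6 CPM in CUMS and 407 ± 11.7 CPM in Control (SD, n = 3 each). The log2 fold change was 0.25 ± 0.044 (SE; 95% interval 0.15 to 0.35; adjusted p = 0.0084). The call held in each of the 12 alternative fits, though with an adjusted p as high as 0.0495, without Control replicate 3. The change is small: 36.6% of the genes tested had a log2 fold change at least as large in either direction, and 247 genes had an adjusted p as low or lower.

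Cxcr2 (ENSMUSG00000026180.8; chromosome 1, 74153989 to 74161246, plus strand), the receptor gene on the release side, was far more abundant and ranked 42 of 15778 genes by mean CPM. It measured 1994, 1779 and 1867 CPM in CUMS and 1970, 1893 and 1892 CPM in Control. The Control libraries lay inside the range of the CUMS libraries. The log2 fold change was -0.03 ± 0.043 (adjusted p = 0.81), with a 95% interval of -0.12 to 0.06, that is, a fold between 0.918 and 1.05. Without CUMS replicate 2 its sign turned (0.01).

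Retention was set against release within each library by the ratio of Cxcr4 to Cxcr2 counts, which does not depend on how libraries are scaled. Cxcr4 counts were 25.6%, 26.0% and 25.7% of Cxcr2 counts in CUMS and 21.1%, 21.7% and 20.8% in Control. The groups were wide apart relative to their spread: 25.7% ± 0.247 in CUMS and 21.2% ± 0.431 in Control (SD, n = 3 each). On the log2 scale the difference of the ratio, CUMS minus Control, was 0.28 ± 0.019 (SE), a 1.21-fold higher ratio. The exact two-sided permutation test gave p = 0.1, the smallest that 3 against 3 libraries allow. Leaving out any single library gave differences of 0.27 to 0.30. Within CUMS the ratio was steadier than the level of Cxcr4 or Cxcr2 alone. There, replicate 1 was highest and replicate 2 lowest for both genes.

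**Figure D2:**
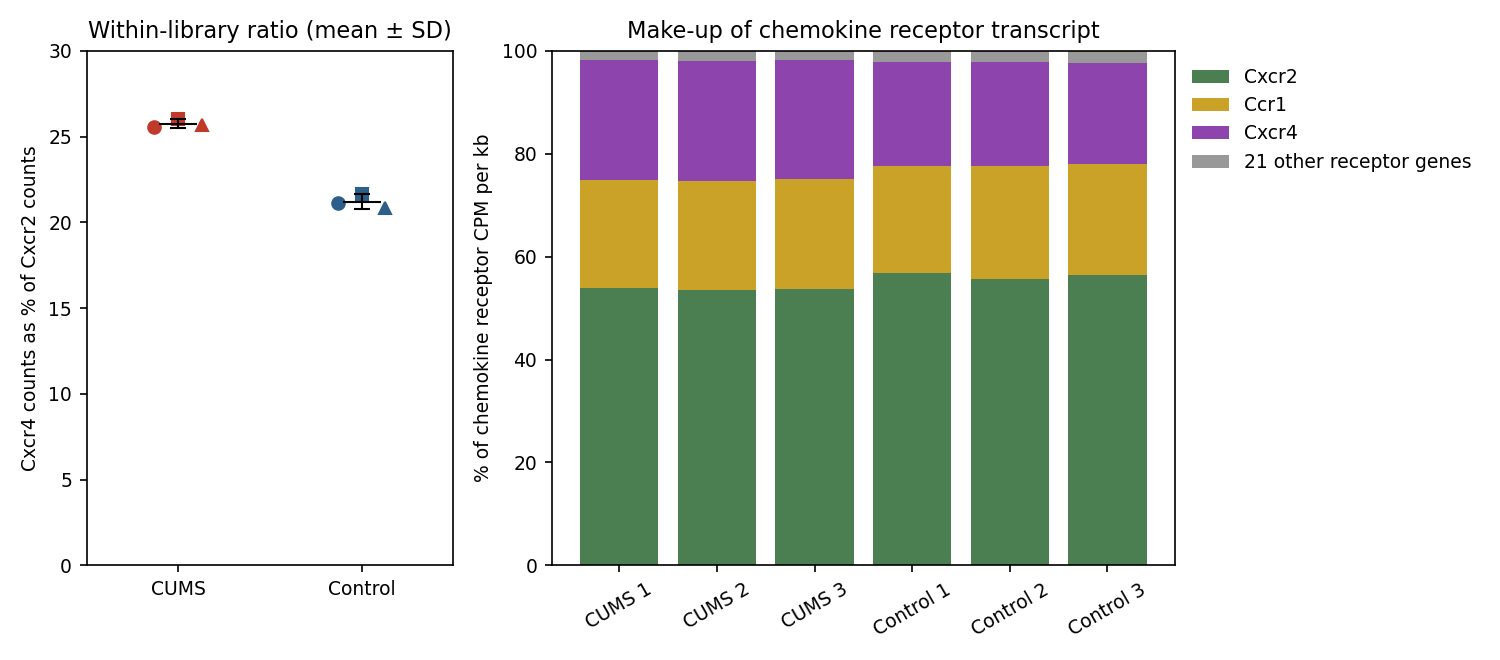
Left: Cxcr4 counts as a percentage of Cxcr2 counts in each library (circle, square and triangle are replicates 1, 2 and 3, with mean ± SD), 25.6 to 26.0% in CUMS and 20.8 to 21.7% in Control. Right: share of the summed CPM per kb of 24 chemokine receptor genes in each library, where Cxcr2 is the largest share throughout and the Cxcr4 share is larger in each CUMS library.

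Neutrophil stage markers moved in these same libraries. Of 12 genes of immature neutrophils, 9 were called lower in CUMS and 0 higher, beside 2.14% called lower and 2.36% called higher over all genes. Their median log2 fold change was -0.33, beside a median of -0.0073 over all genes tested. Their summed level was 47150 to 53726 CPM in CUMS and 54583 to 57244 CPM in Control. The early granule genes Mpo and Elane, which are in the general neutrophil list, were called higher instead: Mpo, the myeloperoxidase gene, measured 6.26 to 7.66 CPM in CUMS and 2.55 to 4.26 CPM in Control (log2 fold change 1.03, adjusted p = 0.0095), and Elane, the neutrophil elastase gene, measured 1.65 to 2.67 CPM in CUMS and 0.339 to 0.599 CPM in Control. Of 12 genes of mature neutrophils, Mmp9 was called higher and Il1b, Csf2rb and Mxd1 lower, with a median of 0.02 and overlapping sums (34157 to 36491 CPM in CUMS, 33509 to 34741 CPM in Control). B cell progenitors carry Cxcr4 as well, and 0 of 10 B cell markers passed. An unadjusted p under 0.05 was found for 2, beside 16.9% of all genes. DESeq2 called 1, beside 9.81% of the genes it tested. All 10 markers had positive log2 fold changes with a median of 0.33, at the sums given above. The part of these cells and stages in the Cxcr4 difference was not tested.

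**Figure D3:**
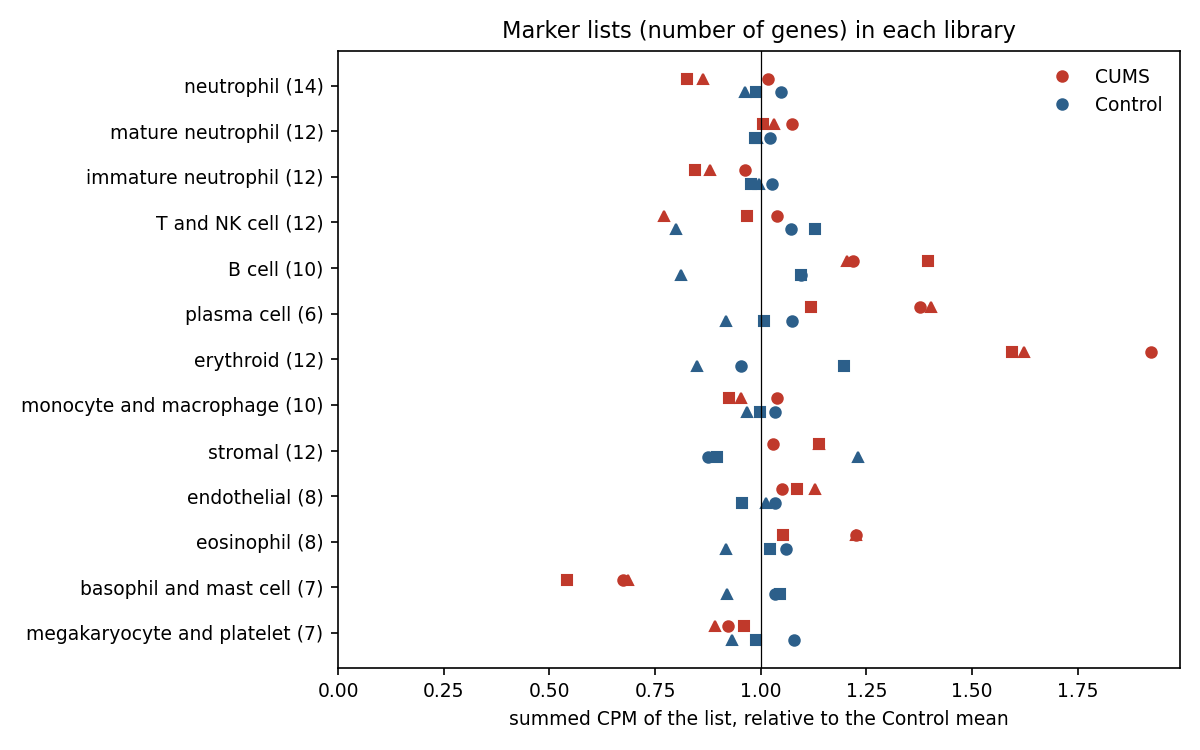
Summed CPM of each marker list in each library, divided by the list's Control mean (x axis; circle, square and triangle are replicates 1, 2 and 3). Erythroid, B cell, plasma cell and endothelial lists lie higher in every CUMS library than in any Control library, and the immature neutrophil and basophil lists lie lower.

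Set per kilobase of exon, the order of the 10 genes can be compared. Cxcr2 led with 617 ± 35.5 CPM per kb in CUMS and 629 ± 14.7 CPM per kb in Control. Cxcr4 followed at 268 ± 13.1 in CUMS and 225 ± 6.48 in Control, and Ccr1 at 242 ± 11.3 in CUMS and 240 ± 3.52 in Control (CPM per kb, SD, n = 3 each). Cxcr4 and Ccr1 thus stood in opposite order in the groups: every CUMS library held more Cxcr4 than the highest Ccr1 value of that group, and every Control library held less Cxcr4 than the lowest Ccr1 value. Levels this close rest on the exon lengths used (1808 bp for Cxcr4 and 2833 bp for Ccr1), and other transcript models would move both. Rgs2 came next at 127 ± 7.58 in CUMS and 124 ± 3.01 in Control, and then S1pr4 at 53.6 ± 1.81 in CUMS and 52.6 ± 1.6 in Control.

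Ccrl2 and Cxcr1 were not separated in CUMS (9.04 ± 0.771 and 9.03 ± 0.779 CPM per kb), whereas in Control all Ccrl2 values (12.2 ± 0.150) lay above all Cxcr1 values (9.68 ± 0.450). S1pr1 (2.13 ± 0.171 in CUMS, 1.54 ± 0.065 in Control), Cxcr3 (1.11 ± 0.170 in CUMS, 0.620 ± 0.217 in Control) and Cxcl12 (0.101 ± 0.029 in CUMS, 0.046 ± 0.020 in Control) closed the order. Over 24 chemokine receptor genes, Cxcr2 made up 53.7% ± 0.271 of the summed CPM per kb in CUMS and 56.3% ± 0.536 in Control, while Cxcr4 made up 23.3% ± 0.107 in CUMS and 20.1% ± 0.292 in Control. Neither pair of groups overlapped. Because shares sum to a whole, the lower Cxcr2 share goes with the higher Cxcr4 share and is no separate result.

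**Figure D4:**
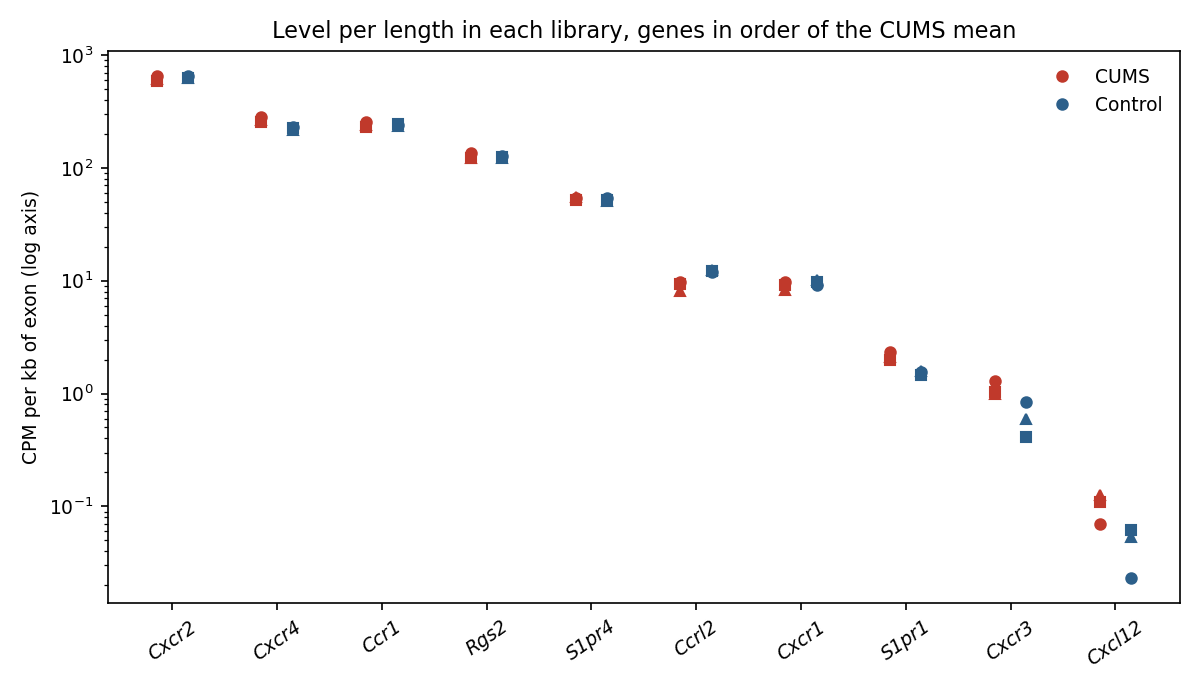
CPM per kb of exon (log axis) of the 10 genes in each CUMS and Control library, in the order of the CUMS mean (circle, square and triangle are replicates 1, 2 and 3). Cxcr2 is highest in both groups, Cxcr4 stands above Ccr1 in CUMS and below it in Control, and Cxcl12 is lowest.

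Among the other chemokine receptor genes, Cxcr1 (ENSMUSG00000048480.5; chromosome 1, 74191785 to 74194631, minus strand) lies close to Cxcr2 and encodes a receptor for overlapping ligands. It was sparse beside Cxcr2: per kb of exon, Cxcr2 was 68.3 times as abundant in CUMS and 65.0 times in Control. Cxcr1 measured 14.5, 13.7 and 12.2 CPM in CUMS and 13.7, 14.5 and 15.1 CPM in Control, and the groups overlapped. Its log2 fold change was -0.10 ± 0.098 (adjusted p = 0.69, 95% interval -0.32 to 0.11).

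Ccr1 (ENSMUSG00000025804.5; chromosome 9, 123962124 to 123968692, minus strand), a receptor gene for CCL3, CCL5 and related chemokines, measured 720, 656 and 685 CPM in CUMS and 676, 690 and 671 CPM in Control. The Control libraries lay inside the range of the CUMS libraries. The log2 fold change was 0.02 ± 0.041 (adjusted p = 0.90, 95% interval -0.07 to 0.11), and without CUMS replicate 1 it was -0.02.

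Ccrl2 (ENSMUSG00000043953.12; chromosome 9, 111054486 to 111057519, minus strand) encodes an atypical receptor that binds chemerin and does not signal through G proteins. It measured 25.1, 24.1 and 21.3 CPM in CUMS and 31.3, 31.4 and 32.0 CPM in Control. All CUMS libraries were lower than all Control libraries, and the Control libraries were nearly level. The means were 23.5 ± 2.00 CPM in CUMS and 31.6 ± 0.389 CPM in Control (SD, n = 3 each). The log2 fold change was -0.43 ± 0.075 (95% interval -0.59 to -0.26; adjusted p = 0.0078). The call held in all 12 alternative fits, with an adjusted p up to 0.0489 without Control replicate 3. Markers of basophils and mast cells, which in mice also carry Ccrl2, summed to 5.47 to 6.95 CPM in CUMS and 9.31 to 10.6 CPM in Control. All 7 had log2 fold changes below 0, and 0 of 7 were called. An unadjusted p under 0.05 was found for 3, beside 16.9% of all genes. DESeq2 called 2, beside 9.81% of the genes it tested. The part of these cells in the Ccrl2 difference was not tested.

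Cxcr3 (ENSMUSG00000050232.6; chromosome X, 101731535 to 101734269, minus strand), a receptor for interferon-induced chemokines best known on T and NK cells, was close to the lower limit of these libraries. It measured 2.26, 1.79 and 1.71 CPM in CUMS and 1.47, 0.716 and 1.04 CPM in Control, from 46.2 to 49.8 read pairs in CUMS and 18.5 to 28.8 read pairs in Control. The groups did not overlap, and the log2 fold change of 0.84 ± 0.30 did not pass (adjusted p = 0.16). The sums of the 12 T and NK cell markers overlapped, and 0 of 6 genes tested passed with edgeR or DESeq2 or had an unadjusted p under 0.05. Cd3d made up most of those sums, at 3.12 to 4.88 CPM in CUMS and 3.37 to 5.11 CPM in Control, while Cd3e and Trac were at most 0.118 CPM in any library. The part of these cells in the Cxcr3 difference was not tested.

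The 18 further chemokine receptor genes were scarce. In all, 10 were tested and 0 passed, none had an unadjusted p under 0.05 and DESeq2 called 0. The highest value in any library was 2.59 CPM, for Ccr3, an eosinophil receptor. Ccr4, Ccr8, Xcr1, Ackr1 and Ackr3 were listed at 0 in all 6 libraries, where 3 read pairs per library would be 0.108 to 0.153 CPM. Ackr3, the other known receptor of CXCL12, was thus not detectable at this depth.

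Cxcl12 itself (ENSMUSG00000061353.11; chromosome 6, 117168535 to 117181367, plus strand), the ligand of CXCR4, was near the detection limit in the sorted cells. It measured 0.570, 0.890 and 1.03 CPM in CUMS and 0.191, 0.503 and 0.436 CPM in Control. These values rest on 48, 99 and 111 estimated counts in CUMS and 15, 52 and 37 in Control, at about 4 per read pair. The groups did not overlap, but the log2 fold change of 1.13 ± 0.47 did not pass (adjusted p = 0.24), and leaving out single libraries moved it between 0.82 and 1.40. Marrow stromal markers were nearly absent: Lepr, Pdgfrb, Pdgfra, Adipoq, Dcn and Bglap were at most 0.0765 CPM in any library. The 12 stromal markers summed to 8.53 to 9.43 CPM in CUMS and 7.25 to 10.2 CPM in Control, with 0 of 3 tested genes called. DESeq2 called 1, beside 9.81% of the genes it tested. An unadjusted p under 0.05 was found for 2, beside 16.9% of all genes. The 2 genes went opposite ways. Col1a1, a collagen gene, measured 4.90 to 6.60 CPM in CUMS and 3.45 to 4.49 CPM in Control (log2 fold change 0.57, adjusted p = 0.083), with no overlap. Vcam1, an adhesion molecule gene, measured 2.60 to 3.05 CPM in CUMS and 2.95 to 5.49 CPM in Control (-0.55, adjusted p = 0.23), with overlap. Sparc, the remaining gene tested, measured 0.108 to 0.333 CPM in CUMS and at most 0.0774 CPM in Control (2.27, adjusted p = 0.32). Every Control library lay under the filter's level of 0.106 CPM for Sparc. It thus entered the test through its higher group alone, and its fold is no support for a difference. The part of stromal cells in the Cxcl12 difference was not tested.

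Of the sphingosine 1-phosphate receptor genes, neither passed the test. S1pr4 (ENSMUSG00000044199.6; chromosome 10, 81497747 to 81500132, minus strand), the blood cell receptor of this family, measured 130, 123 and 131 CPM in CUMS and 130, 124 and 123 CPM in Control. These groups overlapped, with a log2 fold change of 0.03 ± 0.046 (adjusted p = 0.83, 95% interval -0.07 to 0.13). S1pr1 (ENSMUSG00000045092.8; chromosome 3, 115710433 to 115715072, minus strand), whose product guides lymphocytes out of lymphoid organs, measured 7.05, 6.02 and 6.41 CPM in CUMS and 4.77, 4.47 and 4.84 CPM in Control. Every CUMS library lay above every Control library for S1pr1.

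The log2 fold change of S1pr1 was 0.47 ± 0.13 with an adjusted p of 0.074, which missed the threshold in edgeR. DESeq2 called it (0.48, adjusted p = 0.039), beside 9.81% of the genes that DESeq2 tested, and the other 11 alternative fits did not (0.070 to 0.20). Per kb of exon, S1pr4 was 25.2 times as abundant as S1pr1 in CUMS and 34.1 times in Control. B cells, which carry S1pr1, had marker sums higher in every CUMS library, and endothelial markers summed to 12.7 to 13.7 CPM in CUMS and 11.6 to 12.5 CPM in Control, with 0 of 3 called (1 at an unadjusted p under 0.05, 0 by DESeq2) and Esam listed at 0 throughout. Pecam1, which other blood cells also express, made up most of that sum, at 12.3 to 12.9 CPM in CUMS and 11.2 to 11.8 CPM in Control. The gene with the unadjusted p under 0.05 was Kdr, a VEGF receptor gene, at most 0.0475 CPM in CUMS and 0.155 to 0.295 CPM in Control. Every CUMS library lay under the filter's level of 0.106 CPM for Kdr. It thus entered the test through its higher group alone, and that p is no support for a difference. The part of B and endothelial cells in the S1pr1 difference was not tested. Of 8 further sphingosine 1-phosphate genes tested out of 11 listed, 0 passed with edgeR or DESeq2 and none had an unadjusted p under 0.05. Among them the lyase gene Sgpl1 measured 200.2 ± 6.49 CPM in CUMS and 193 ± 7.17 CPM in Control, and S1pr2 measured 7.60 ± 0.660 CPM in CUMS and 7.83 ± 0.839 CPM in Control (SD, n = 3 each). S1pr5 was listed at 0 in all libraries.

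Rgs2 (ENSMUSG00000026360.9; chromosome 1, 143999338 to 144004161, minus strand) encodes a protein that speeds the shutdown of G protein signals. It measured 494, 446 and 446 CPM in CUMS and 462, 451 and 440 CPM in Control. The groups overlapped, with a log2 fold change of 0.04 ± 0.047 (adjusted p = 0.79, 95% interval -0.07 to 0.14) that was -0.01 without CUMS replicate 1.

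Genes that act on the receptors after ligand binding were described from a list. Of 24 coupling and desensitisation genes tested, 4 rose (Grk5, Gng2, Pik3cg and Arrb1) and 0 fell, beside 2.36% and 2.14% called over all genes. The list held 6 genes with an unadjusted p under 0.05, in either direction, beside 16.9% of all genes. By DESeq2, 4 were called, beside 9.81% of the genes it tested. The list's median log2 fold change was 0.06, beside -0.0073 over all genes. Grk5, a kinase gene whose product phosphorylates active G protein-coupled receptors, measured 54.9, 57.7 and 53.6 CPM in CUMS and 37.5, 37.5 and 42.9 CPM in Control. Its groups lay well apart, with a log2 fold change of 0.50 ± 0.066 (adjusted p = 0.0016), and the call held in all 12 alternative fits. Over whole gene spans, introns included, Grk5 shares 42129 bases with Zfp950 on the opposite strand. Overlap of exons was not measured, and whether the counting used strand is not given, so any effect on the counts is not known. On the same measure, opposite-strand genes also cover 2720 bases of the Arrb1 span, 897 of the Gng2 span and 597 of the Thbs1 span.

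The other 3 rises were smaller. Gng2, a G protein gamma subunit gene, averaged 164 ± 4.38 CPM in CUMS and 140 ± 5.71 CPM in Control (log2 fold change 0.23 ± 0.046, adjusted p = 0.016). Pik3cg, the catalytic subunit gene of the G protein-driven PI3-kinase of neutrophils, averaged 381 ± 5.13 CPM in CUMS and 331 ± 10.7 CPM in Control (0.20 ± 0.039, adjusted p = 0.014). Arrb1, which encodes beta-arrestin 1, averaged 401 ± 8.80 CPM in CUMS and 357 ± 13.8 CPM in Control (0.17 ± 0.041, adjusted p = 0.043). These calls were lost in some leave-one-out fits. Gng2 lost its call without CUMS replicate 3, Control replicate 2 or Control replicate 3 (adjusted p 0.062 to 0.082). Pik3cg lost it without CUMS replicate 2, CUMS replicate 3 or Control replicate 2 (0.056 to 0.089). Arrb1 lost it when any of 5 libraries was left out, CUMS replicate 1 being the exception (0.056 to 0.17). In the leave-one-out fits the log2 fold changes were 0.20 to 0.26 for Gng2, 0.18 to 0.23 for Pik3cg and 0.14 to 0.20 for Arrb1. In those fits the number of genes called over all genes also fell, from 710 to between 305 and 697.

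**Figure D5:**
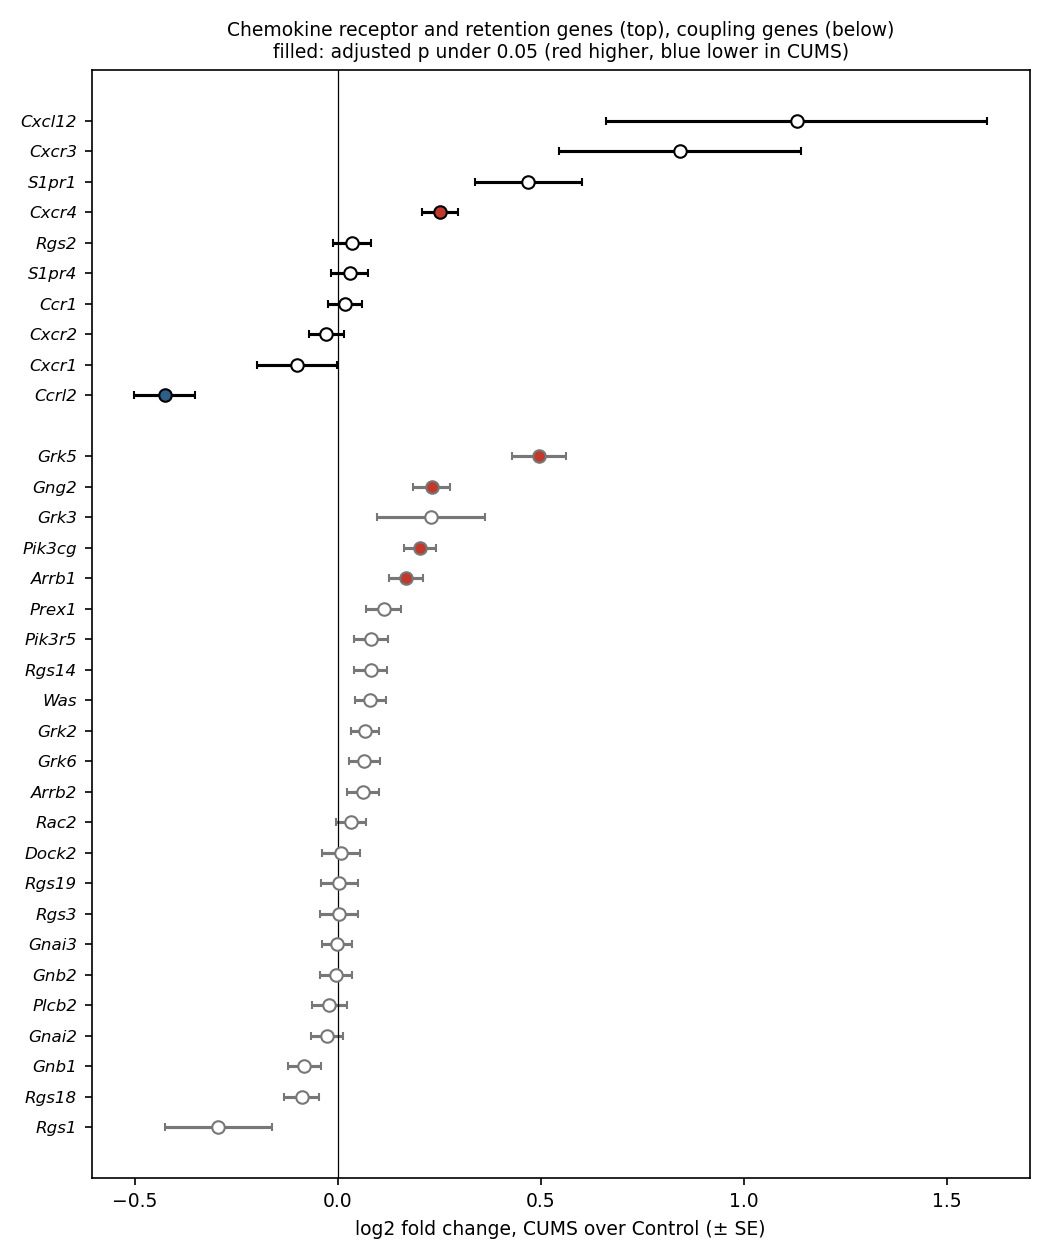
Log2 fold change, CUMS over Control (x axis, ± SE), of the 10 genes (top) and of the coupling and desensitisation genes (below; Rgs10, which has a wide error, is left out for scale). Filled points passed an adjusted p of 0.05: Cxcr4, Grk5, Gng2, Pik3cg and Arrb1 higher in CUMS and Ccrl2 lower.

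Of the 24 coupling genes, 20 did not pass, among them Grk2 and Gnai2. Grk2, the main receptor kinase gene of blood cells, measured 1025, 1072 and 1047 CPM in CUMS and 999, 995 and 1008 CPM in Control (log2 fold change 0.07 ± 0.034, adjusted p = 0.36). The G protein alpha subunit gene Gnai2, through which chemokine receptors signal, measured 1819, 1714 and 1678 CPM in CUMS and 1811, 1712 and 1789 CPM in Control (-0.03 ± 0.039, adjusted p = 0.81). Grk2 did not overlap between the groups, as was so for 22.9% of all genes tested, and Gnai2 did.

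Of 20 further factors of retention and release, 14 were tested, 2 rose (Mmp9 and Elane) and 2 fell (Cxcl2 and Thbs1), beside 2.36% called higher and 2.14% called lower over all genes, with a median log2 fold change of -0.02. An unadjusted p under 0.05 was found for 9 of the 14, beside 16.9% of all genes. DESeq2 called 6, beside 9.81% of the genes it tested. Cxcl2, a CXCR2 ligand gene that neutrophils also make, measured 343, 333 and 333 CPM in CUMS and 503, 501 and 436 CPM in Control. All CUMS values were lower, with a log2 fold change of -0.51 ± 0.054 (adjusted p = 3.2e-04). Thbs1, the thrombospondin 1 gene, averaged 1812 ± 73.2 CPM in CUMS and 2214 ± 69.6 CPM in Control (-0.29 ± 0.039, adjusted p = 0.0018). Elane, whose product can cleave CXCL12 and CXCR4, averaged 2.13 ± 0.517 CPM in CUMS and 0.454 ± 0.133 CPM in Control (2.23 ± 0.32, adjusted p = 0.0025), from 45.8 to 56.2 read pairs in CUMS and 8.75 to 11.8 read pairs in Control.

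Itga4, the alpha 4 integrin gene whose product binds VCAM1 in the marrow, measured 152, 162 and 157 CPM in CUMS and 114, 143 and 138 CPM in Control and did not pass (0.25 ± 0.074, adjusted p = 0.092). Csf3r, the receptor gene for the mobilising cytokine G-CSF, measured 4448, 4755 and 4801 CPM in CUMS and 4381, 4313 and 4299 CPM in Control and did not pass (0.11 ± 0.035, adjusted p = 0.12). For both genes the groups did not overlap, as was so for 22.9% of all genes tested. Mmp9 rose by 0.12 ± 0.029 (9306 ± 53.4 CPM in CUMS, 8571 ± 191 CPM in Control, adjusted p = 0.038), a call lost without CUMS replicate 2 or 3 or Control replicate 2 or 3 (0.0996 to 0.18).

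The genes most like Cxcr4 over the 6 libraries, among 6446 genes of at least 10 CPM, were Pnpla2, Gng2 and Creg1. Likeness was the root mean square difference of log2 CPM after centring each gene on its own mean. This difference was 0.017 for Pnpla2 and 0.025 for both Gng2 and Creg1, beside a median of 0.152 over the genes compared. The step between the groups is part of this measure. Fold changes close to those of Cxcr4 or Cxcr2 thus follow from the choice of these genes and are no separate result. Pnpla2, a triglyceride lipase gene, averaged 135 ± 5.74 CPM in CUMS and 113 ± 2.21 CPM in Control (log2 fold change 0.25, adjusted p = 0.0096), a call lost without Control replicate 2 (0.052). Creg1, the gene of a secreted lysosomal glycoprotein, averaged 142 ± 8.66 CPM in CUMS and 121 ± 4.00 CPM in Control (0.23, adjusted p = 0.032), a call lost when any of 4 libraries was left out (0.072 to 0.12). The nearest to Cxcr2 were Cd24a, Cyrib and Pgam1-ps2, at 0.0098, 0.010 and 0.013, beside a median of 0.103. Cd24a, the gene of a small surface glycoprotein, averaged 1068 ± 67.3 CPM in CUMS and 1077 ± 27.7 CPM in Control, a log2 fold change of -0.01 that did not pass (adjusted p = 0.94).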

How the data were processed

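The 6 libraries of sorted marrow neutrophils were prepared with a TruSeq kit, starting with 1 µg RNA, and read as 150 bp pairs, per the labels' protocols. Per the submitters' processing notes, tools were HISAT2 2.1, featureCounts 1.6.4, cutadapt 1.16.5, bcl2fastq 2.19 and DESeq2 2.11.40.6, with mm10 as genome build. The authors deposited whole numbers per gene, treated here as estimated counts: multiples of 4 were over-represented (4 was 1.89 times as frequent as its neighbours on average), giving about 4 per read pair. Of 47561 rows, 1588 have STRG identifiers of assembled transcripts (0.671% to 0.751% of counts). The step that made the numbers is not stated in those notes.

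Of rows with a common symbol, the largest took the symbol. The values needed no rounding and were tested with edgeR 4.0.16 (R 4.3.3): filterByExpr (minimum count 10), TMM scaling, group as the only term, the quasi-likelihood F test and Benjamini-Hochberg adjustment over all 15778 genes tested. Unless another tool is named, every adjusted p is from that fit, and its threshold is 0.05. Errors of CPM are SD over 3 libraries, errors of log2 fold changes are SE from the F statistic, and 95% intervals use the fit's t quantile. Genes at 0 have a floor of 3 read pairs (12 estimated counts) in each library, which covers counting error only: the reads carry no molecular identifiers.

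Coordinates and merged exon lengths are from GENCODE M21 (GRCm38), matched by symbol (72.8% of rows); upstream windows are from RefSeq (GRCm38.p6; 9 of 10 genes matched). The 5 motifs were chosen with the sequences known. The genes and lists were chosen with earlier results of these data known, and genes to be named were set by rule: all 10 genes, the called genes of each pathway list, and the 3 nearest to Cxcr4 and to Cxcr2. Genes described besides these (Grk2, Gnai2, Itga4, Csf3r, Sgpl1, S1pr2, Ccr3 and single marker genes) were chosen after their values were seen. Replicates differed by more than counting noise (chi-square of 4.31 to 15.4 per gene), and all were used. The procedure was also run on simulated counts, the outcome of which is not given here and lends no support to these results. Alternatives were RLE and upper quartile scaling, no filter, DESeq2 1.42.0, counts divided by 4, a replicate block and leaving out each library.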

Additional observations from a re-analysis of the deposited data

How the results depend on the processing

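Cxcr4 (0.21 to 0.28) and Ccrl2 (-0.48 to -0.36) kept their direction and their calls in all 12 alternative fits, and 2 of the 10 genes were called in each of them except DESeq2, which called 3 with S1pr1 (0.48). The number of genes called in all moved from 710 to 462 without a filter on low counts, to 1150 with DESeq2, and to between 305 and 697 without single libraries. RLE scaling (709), upper quartile scaling (722), counts divided by 4 (895) and the replicate block (931) stayed within 1.5 times. No scaling moved the median log2 fold change by as much as 0.01. The sign of Cxcr2 turned without CUMS replicate 2 (leave-one-out range -0.073 to 0.011), that of Ccr1 (-0.017 to 0.052) and of Rgs2 (-0.014 to 0.063) without CUMS replicate 1, and those of Cd24a (-0.060 to 0.032), Cyrib (-0.061 to 0.023) and Pgam1-ps2 (-0.049 to 0.029) without CUMS replicate 2 or Control replicate 1. None of these had passed the test, and the cause was not tested. Besides the lost calls given above, Arrb1 (0.18) and Mmp9 (0.13) lost theirs without a filter, Pnpla2 (0.25) without Control replicate 2, and Creg1 without a filter (0.23) or without any library other than CUMS replicate 2 and Control replicate 1 (0.18 to 0.24). DESeq2 gave no adjusted p for Cxcl12.

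Whether replicate numbers pair the libraries is not settled. Over all 15778 genes tested, deviations from the group means correlated by 0.008, 0.003 and -0.026 between same-numbered libraries. Between differently numbered libraries they correlated by -0.029 to 0.027. Genes of few counts weigh as much as others in this measure, so it cannot exclude pairing. The fit with a replicate block called 931 genes, beside 710 in the main fit. With the replicate block Cxcr4 had a log2 fold change of 0.25 and Cxcr2 of -0.03, the difference of the Cxcr4 to Cxcr2 ratio was 0.28 (exact sign-flip permutation p = 0.25, the smallest 3 pairs allow), and no call among the 10 genes changed.

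Depth limits Cxcl12 and Cxcr3, which rest on fewer than 50 read pairs in each library, and Elane, whose Control values rest on at most 11.8 read pairs. It also limits Epx, at most 0.217 CPM in Control, and Kdr and Sparc, at most 0.295 and 0.333 CPM in any library. At this depth 3 read pairs would be 0.108 to 0.153 CPM.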
